A study of Mus musculus with 6 samples.

Results

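The 6 RNA sequencing libraries of the study, made from C2C12 myotubes, were grouped in 3 near pairs without regard to their treatment label, and the transcript differences among those pairs are described here. Each pair holds 2 of the 6 libraries. Pair A joined the libraries labelled corticosterone replicate 1 and vehicle replicate 3. Pair B joined corticosterone replicates 2 and 3, and pair C joined vehicle replicates 1 and 2. Values are given in that order within each pair. C2C12 is a mouse myoblast line, here wild type and below passage 7, that was grown to confluence and differentiated for 7 days in 2% horse serum. All 6 cultures shared that procedure. The 3 corticosterone cultures then received corticosterone at 1e-07 M for 24 h, and the 3 vehicle cultures received 1 µL/mL of ethanol for the same time. Per the submitters, the 3 libraries of each treatment were independent biological replicates, but no label says which cultures were plated, differentiated or prepared together. A clonal cell line kept in a dish has no nerve, vessel or other tissue cell beside it, which limits it as a model of muscle.

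The pairs were chosen by the distances between libraries, after the data were seen and over the same genes that are described below. Differences among the pairs therefore had to appear, and they are given as measured values with no p-value. Over the 14839 genes kept, the root mean square difference in log2 CPM (CPM being the reads of a gene divided by the library total and brought to a common size, scaled by the trimmed mean of M values, TMM) was 0.381 within pair A, 0.420 within pair B and 0.387 within pair C. The closest libraries that were not paired were corticosterone replicate 2 and vehicle replicate 3, at 0.466, and the farthest were corticosterone replicate 3 and vehicle replicate 1, at 0.587. The nearest library was the pair mate for 6 of 6 libraries, but the widest pair, at 0.420, was not far inside the smallest distance between pairs. The first and second principal components held 36.5% and 27.5% of the variance. The 3 pairs sat apart on the first, while on the second pair A lay above pairs B and C, which overlapped. Libraries of a pair were not copies of one another. Between 32.2% and 42.7% of genes differed within a pair beyond counting noise by an exact binomial comparison of the reads at an unadjusted threshold of 0.05, against 44.1% to 55.8% between libraries of different pairs.

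**Figure D1:**
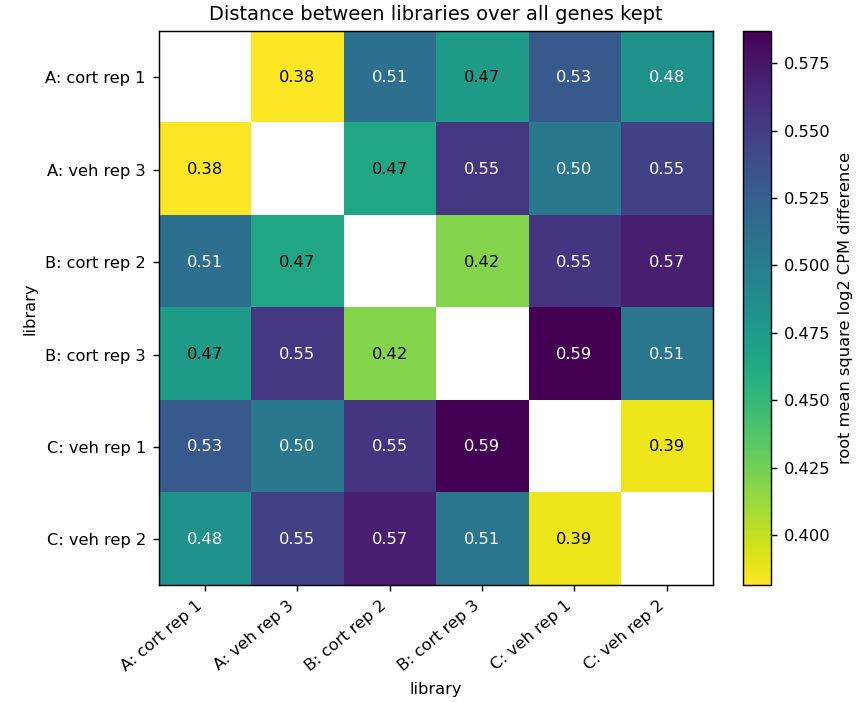
Library distances. The heat map gives the root mean square difference in log2 CPM between each 2 libraries over 14839 genes, with the mates of a pair side by side.

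C2C12 myoblasts leave the cell cycle when serum is lowered, switch on myogenin, fuse into multinucleated myotubes, and then assemble sarcomeres and the calcium release machinery. Cultures hold unfused myoblasts and reserve cells beside the myotubes, and both kinds secrete collagens and other matrix. Embryonic and perinatal myosin heavy chains come on before the adult fast isoforms, so the mix of isoforms is commonly used to stage a culture. Because the RNA is from whole dishes, fewer cells of a type and less RNA per cell cannot be told apart in any value below.

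Total counts ran from 23877583 to 29928653 per library, and 19541 to 20404 genes had a read. A count of 3 equalled 0.103 to 0.125 CPM, a floor that covers counting error only. Transcripts of myogenin and of the fusion protein myomaker (Tmem8c in the table) were abundant in all 6 libraries, with Tmem8c at 817 CPM or more in each. The labels and 3 genes that glucocorticoids are known to induce did not go together. Fkbp5, which binds the receptor complex as a co-chaperone, stood at 151 and 35.4 CPM in pair A, 36.9 and 135 CPM in pair B and 36.97 and 177 CPM in pair C. Tsc22d3 and Per1 split the libraries in the same way. Each pair thus held 1 library high and 1 library low in these genes, and the high ones were the libraries labelled corticosterone replicates 1 and 3 and vehicle replicate 2. The third principal component, with 20.1% of the variance, separated the same 3 libraries from the others, so this split crossed the pairs instead of following them.

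Markers of other cell types were looked up because a mixed culture could differ in them. The adipocyte genes Adipoq, Cfd, Cidec, Lep and Retn, the leukocyte genes Ptprc and Adgre1 and the stromal factor Tcf21 had 0 reads in every library. Of 10 adipocyte markers, 4 passed the count filter, and their summed level was 88.8 and 60.8 CPM in pair A, 83.6 and 113 CPM in pair B and 83.3 and 127.5 CPM in pair C. Of 11 endothelial and immune markers, 3 passed, with a summed level of 4.504 and 4.299, 4.65 and 3.61 and 2.97 and 2.38 CPM. Fibroblast markers are given with the collagens.

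An edgeR quasi-likelihood fit across the 3 pairs passed an adjusted p of 0.05 for 1298 of 14839 genes (8.75%). Set against the mean of the other pairs, pair A had 352 such genes (2.37%), of which 147 (0.991%) were higher and 205 (1.38%) lower. Pair B had 806 (5.43%), with 400 higher (2.7%) and 406 lower (2.74%). Pair C had 1310 (8.83%), with 705 higher (4.75%) and 605 lower (4.08%). The rule that formed the pairs used the same genes, so nothing is read from these counts. Pair B carried only corticosterone labels and pair C only vehicle labels, so B against C and the treatment label cannot be told apart, whereas pair A and the other 4 libraries were balanced for the label. With the label as a term, the counts were 24 across the pairs, 162 for pair A, 2 for pair B and 0 for pair C. The counts without that term also fell whenever any 1 library was left out. Such a fit leaves 1 pair with a lone library and less spread to estimate from. It therefore cannot tell whether the counts rested on single libraries. By label, edgeR's quasi-likelihood test with Benjamini-Hochberg adjustment called 0 of 14450 genes (0%), and 1707 had an unadjusted p under 0.05.

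A plainer count needs no model. Both libraries of pair A lay above the other 4 libraries for 1535 genes (10.3%) and below them for 1757 (11.8%). For pair B the counts were 1947 above (13.1%) and 1973 below (13.3%), and for pair C 2496 above (16.8%) and 2707 below (18.2%). For 3100 genes (20.9%) no pair overlapped another. The commonest orders among those were C above A above B, in 753 genes (5.07%), and B above A above C, in 719 (4.85%). The other orders held 479 genes for C above B above A (3.23%), 462 for A above B above C (3.11%), 368 for B above C above A (2.48%) and 319 for A above C above B (2.15%). Pair means were at least 2-fold apart for 1424 genes (9.6%), while 1116 genes (7.52%) differed more than 2-fold between the mates of some pair. Counts of list members below are to be set against these shares, and "above" or "below" always means both libraries of a pair against all 4 others.

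3 genes show 3 of the patterns met in the lists. None of them shows pair A or pair C above the rest, which the lists also hold. Their promoter windows are shown for the sites that muscle transcription factors can bind. Each window is the 250 bases before the RefSeq start (GRCm38.p6), in the direction of transcription. Myogenic factors of the MyoD family bind E-boxes, and every match to CANNTG, which reads the same on both strands, is in capitals. The windows lie at chr1:134289754-134290003 on the plus strand, chr1:90843972-90844221 on the minus strand and chr10:87860861-87861110 on the plus strand. The RefSeq starts of Igf1 and Myog are not those of the GENCODE models given below, so the Igf1 window lies inside the GENCODE gene and the Myog window ends just inside it.
Myog: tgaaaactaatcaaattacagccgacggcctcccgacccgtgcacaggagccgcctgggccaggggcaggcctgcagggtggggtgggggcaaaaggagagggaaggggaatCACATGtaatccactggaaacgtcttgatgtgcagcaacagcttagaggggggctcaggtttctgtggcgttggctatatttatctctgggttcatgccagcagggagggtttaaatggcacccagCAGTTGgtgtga
Col6a3: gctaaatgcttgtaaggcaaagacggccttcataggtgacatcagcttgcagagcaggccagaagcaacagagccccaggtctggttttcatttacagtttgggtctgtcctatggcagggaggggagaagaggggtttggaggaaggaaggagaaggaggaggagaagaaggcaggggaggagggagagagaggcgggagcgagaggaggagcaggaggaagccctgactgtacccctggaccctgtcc
Igf1: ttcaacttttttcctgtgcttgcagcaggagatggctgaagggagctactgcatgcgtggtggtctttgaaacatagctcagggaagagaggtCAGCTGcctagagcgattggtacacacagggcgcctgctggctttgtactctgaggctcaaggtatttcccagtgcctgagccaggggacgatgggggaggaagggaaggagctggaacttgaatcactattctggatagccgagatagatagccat
The Myog window held 2 E-boxes, the Igf1 window 1 and the Col6a3 window 0. Such a match is common, since 66.2% of 32851 RefSeq windows of this length held at least 1, and it describes letters only. The windows of genes above in pair A held CANNTG in 62% of 1357 cases, against 58.8% of 1821 for pair B, 56.7% of 2271 for pair C and 58.3% of the 13192 windows of all genes kept. The form CAGCTG, the match in the Igf1 window, was in 15.6%, 12.7%, 11.3% and 12.8% of those windows.

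Myog (chr1:134289989-134292548, plus strand) encodes myogenin, the factor that starts terminal differentiation. It was read at 747 and 863 CPM in pair A, 789 and 834 CPM in pair B and 631 and 674 CPM in pair C. Pair C was lowest, and pairs A and B overlapped. Col6a3 (chr1:90765923-90843971, minus strand), an alpha chain of the type VI collagen that surrounds muscle fibres, stood at 324 and 227 CPM in pair A, 403 and 439 CPM in pair B and 101 and 101 CPM in pair C. None of the pairs overlapped, with B above A above C. The log2 difference of pair C from the mean of the others was -1.75 ± 0.15 (SE of the fit). Mates were chosen for being near, so this SE and every later one tends to be too small. Igf1 (chr10:87858265-87937042, plus strand), a growth factor that muscle cells make and respond to, stood at 74.03 and 79.3 CPM in pair A, 173 and 176 CPM in pair B and 217 and 142 CPM in pair C. Here pair A was lowest, with a log2 difference of -1.21 ± 0.16, and pairs B and C overlapped. These 3 genes were picked with the pairs in view and are not a test of them.

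Myogenic regulators and fusion genes were mostly higher in pair A. Of 20 genes in the list, all kept, 18 were higher in pair A than the mean of the other pairs, 9 were above in pair A and 8 below in pair C, and the median log2 differences from the other pairs were 0.21 for A, -0.07 for B and -0.15 for C. The medians over all genes kept were 0.00, 0.02 and 0.00. Myod1, which commits cells to the muscle lineage, was nearly level, at 220.5 and 224 CPM in pair A, 194 and 196 CPM in pair B and 191 and 184 CPM in pair C. Both libraries of pair A were the highest. Cdh15, the M-cadherin of myoblast contacts, was likewise highest in pair A, at 544 and 577 CPM in pair A, 516 and 447 CPM in pair B and 471 and 499 CPM in pair C. Mef2c, a partner of the MyoD family at muscle promoters, followed another order, at 519 and 525 CPM in pair A, 386 and 395 CPM in pair B and 523 and 563 CPM in pair C, and pair B was lowest. Tmem8c, which makes myoblasts competent to fuse, stood at 1108 and 1041 CPM in pair A, 1006 and 1090.3 CPM in pair B and 817 and 936 CPM in pair C. Pair C was lowest and pairs A and B overlapped. The second fusion protein, myomixer (Gm7325 in the table), was read at 95.2 and 118 CPM in pair A, 158 and 133 CPM in pair B and 61.3 and 53.6 CPM in pair C. No pair overlapped another, and pair C held the least of both fusion transcripts.

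**Figure D2:**
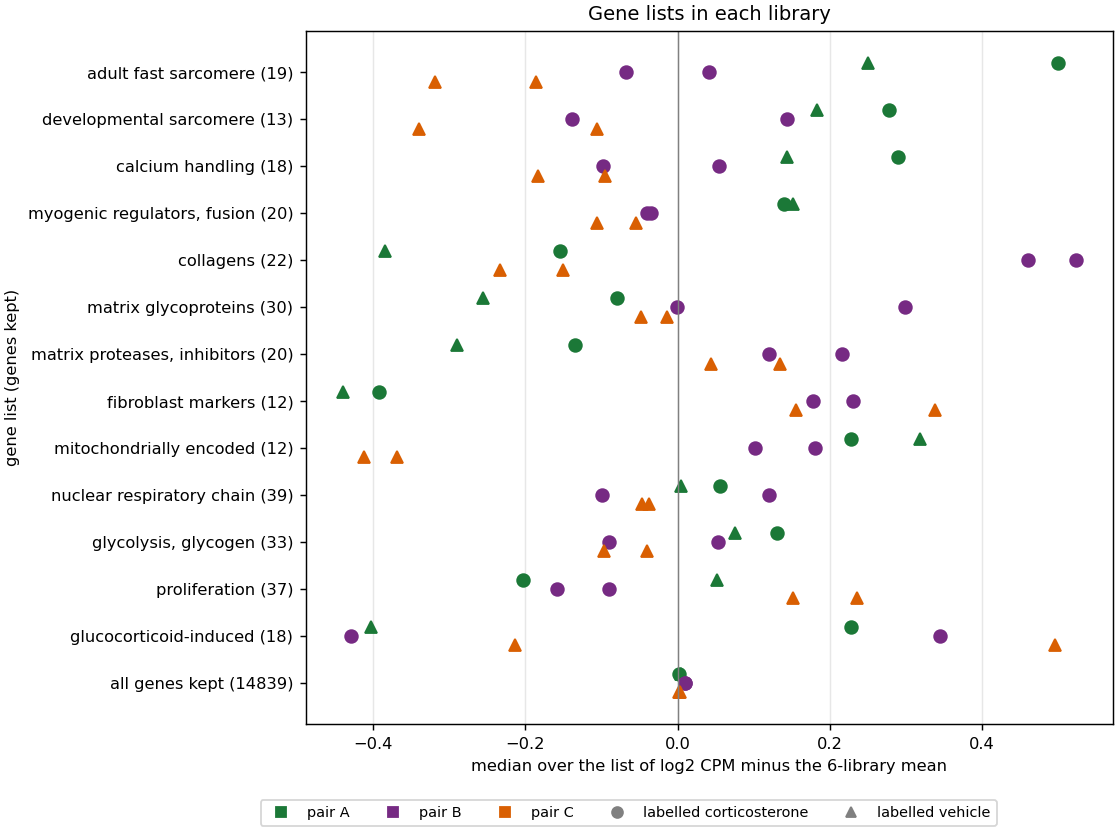
Gene lists in each library. Each point is the median over a list of the log2 CPM minus the 6-library mean, with the number of genes kept in brackets, colours for the pairs, circles for corticosterone labels and triangles for vehicle labels. Sarcomere and calcium lists lie to the right in pair A, collagens in pair B and proliferation genes in pair C, while the glucocorticoid-induced list splits every pair.

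Sarcomere genes tended to be higher in pair A and lower in pair C, with exceptions among the myosins. Of the 20 adult fast sarcomere genes, 19 were kept, 8 were above in pair A and 11 below in pair C, with medians of 0.54 for A, -0.05 for B and -0.37 for C. Of 14 developmental sarcomere genes, 13 were kept, and 13 of them were higher in pair A than the mean of the other pairs, at a median of 0.33. The developmental median in pair C was -0.32. Of the 13, 5 were above in pair A.

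Myh8 (chr11:67277124-67308634, plus strand), the perinatal myosin heavy chain, had the widest gap of pair A above the rest among protein-coding genes of at least 5 CPM. It was read at 414 and 288 CPM in pair A, 62.2 and 103 CPM in pair B and 95.8 and 123 CPM in pair C, a log2 difference of 1.89 ± 0.22 for pair A. Both libraries of pair A were far above the other 4. Mb, the oxygen-binding myoglobin, stood at 526 and 523 CPM in pair A, 247 and 297 CPM in pair B and 173 and 164 CPM in pair C. The pairs did not overlap, and A was above B and B above C. Igfn1, a muscle protein of immunoglobulin and fibronectin domains, was read at 127 and 90.9 CPM in pair A, 32.9 and 44.2 CPM in pair B and 27.03 and 27.99 CPM in pair C. Pairs A and B again lay in that order over C. Myh7b, a myosin heavy chain of slow and cardiac muscle, had the same order, at 55.97 and 57.01 CPM in pair A, 32.9 and 34.9 CPM in pair B and 15.3 and 21.1 CPM in pair C, although its exons share bases with Trpc4ap and the counting is not stated to use strand.

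Other myosins split the pairs differently. Myh3, the embryonic heavy chain, stood at 1586 and 1714 CPM in pair A, 1899 and 1771 CPM in pair B and 974 and 897 CPM in pair C. Pair C was lowest, with a log2 difference of -0.90 ± 0.08, and B was above A. Myh1, the fast IIx chain, was read at 2728 and 2298 CPM in pair A, 1164 and 1410.3 CPM in pair B and 1732 and 2241 CPM in pair C. Pair B was lowest and pairs A and C did not overlap, since the lower library of A was just above the higher one of C. Myh4, the fast IIb chain, stood at 1189 and 1084 CPM in pair A, 862 and 717 CPM in pair B and 856 and 701 CPM in pair C, highest in pair A with B and C overlapping. These heavy chains are close copies over much of their length, and reads shared between them may have been split or lost.

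Pair B was set apart by a pair of thick filament genes. Myl2, the regulatory light chain of slow fibres and heart, stood at 25.4 and 26.3 CPM in pair A, 3.94 and 4.48 CPM in pair B and 27.5 and 24.2 CPM in pair C. The 4 libraries of pairs A and C lay within a narrow band while both of pair B were several-fold lower, with a log2 difference of -2.62 ± 0.11. Mybpc2, the fast myosin-binding protein C, was read at 79.2 and 80.5 CPM in pair A, 21.6 and 32.1 CPM in pair B and 74.9 and 72.6 CPM in pair C. It too was low in pair B alone among the pairs. Ttn, the giant spring of the sarcomere, behaved otherwise, at 3564 and 1896 CPM in pair A, 3192 and 1687 CPM in pair B and 788 and 978 CPM in pair C. Pair C was lowest, and the mates of pairs A and B differed widely from each other.

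Pair C was low in several genes of working muscle. Ckm, the muscle creatine kinase that buffers ATP, stood at 338 and 224 CPM in pair A, 203 and 319 CPM in pair B and 97.5 and 152 CPM in pair C. Pairs A and B overlapped above it. Pvalb, a calcium buffer of fast fibres, was read at 127 and 94.2 CPM in pair A, 95.99 and 152 CPM in pair B and 40.3 and 34.9 CPM in pair C, again with A and B overlapping. Tnnt3, fast troponin T, was less different, at 1810.2 and 1679 CPM in pair A, 1456 and 1679 CPM in pair B and 1119 and 1309 CPM in pair C, and 1 library of pair B reached the level of pair A. Fndc5, the precursor of the secreted peptide irisin, was nearly level in 4 libraries and lower in pair C, at 46.3 and 45.7 CPM in pair A, 47.7 and 45.3 CPM in pair B and 20.3 and 19.2 CPM in pair C.

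**Figure D3:**
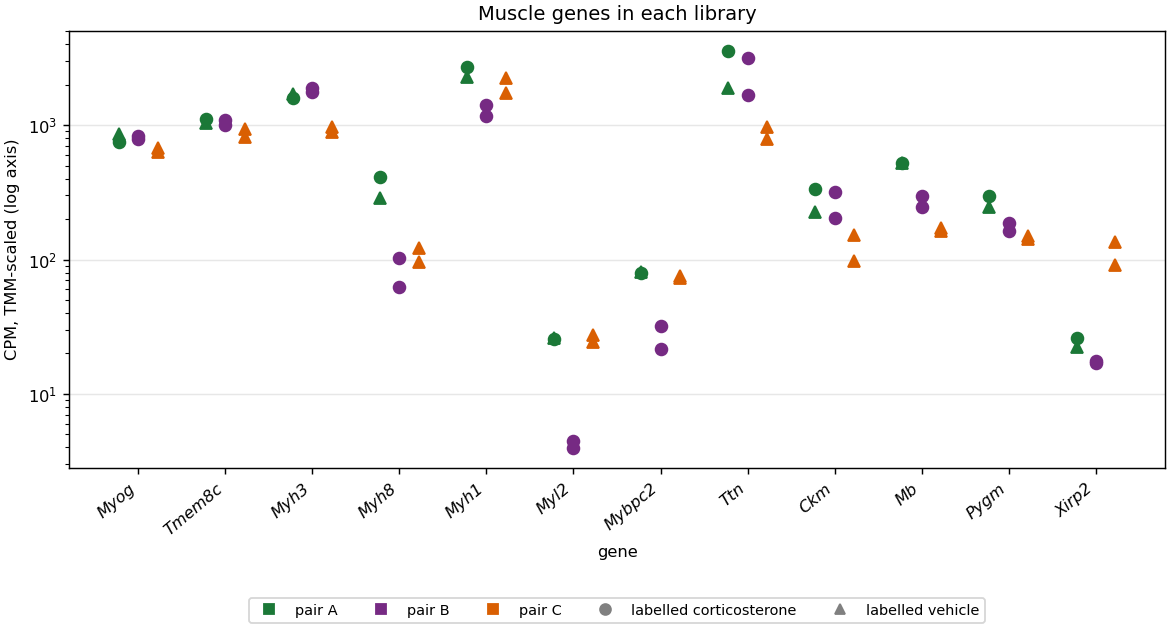
Muscle genes in each library. Each point is the TMM-scaled CPM of 1 library on a log axis, with colours for the pairs and shapes for the treatment label. Myh8 and Mb are highest in both libraries of pair A, Myl2 and Mybpc2 are lowest in pair B, and Xirp2 is highest in pair C.

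Genes of calcium release and excitation tended to be higher in pair A. Of 20 in the list, 18 were kept, 9 were above in pair A and 7 below in pair C, and 17 were higher in pair A than the mean of the other pairs, at a median of 0.34. Cacna1s, the voltage sensor of the muscle membrane, stood at 339.5 and 315 CPM in pair A, 228 and 233 CPM in pair B and 196 and 209 CPM in pair C. No pair overlapped another. Ryr1, the calcium release channel it couples to, was read at 806 and 766 CPM in pair A, 730.5 and 555 CPM in pair B and 541 and 594 CPM in pair C. Pair A was highest and the mates of pair B were far apart. Atp2a1, the fast calcium pump that refills the store, stood at 1611 and 1184 CPM in pair A, 963 and 1238 CPM in pair B and 435 and 559.9 CPM in pair C. Pair C was lowest and pairs A and B overlapped. Scn4a, the muscle sodium channel, was read at 109 and 104 CPM in pair A, 77.1 and 64.7 CPM in pair B and 74.3 and 73.2 CPM in pair C, with pair A highest. Clcn1, the muscle chloride channel, was scarce and followed A, B, C from high to low, at 4.33 and 3.51 CPM in pair A, 2.77 and 2.32 CPM in pair B and 1.17 and 0.931 CPM in pair C. The more abundant Fam131b shares bases with Clcn1.

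Against that pattern, some muscle genes were highest in pair C. Xirp2 (chr2:67446002-67526614, plus strand), an actin-binding protein of intercalated discs and myotendinous junctions, stood at 26.3 and 22.2 CPM in pair A, 17.6 and 17.01 CPM in pair B and 90.4 and 134 CPM in pair C. Both libraries of pair C were over 3-fold above any other, with a log2 difference of 2.46 ± 0.15. Nos1, the neuronal nitric oxide synthase that is held at the muscle membrane, was read at 7.86 and 6.26 CPM in pair A, 10.5 and 8.29 CPM in pair B and 25.7 and 27.8 CPM in pair C. Csrp3, the muscle LIM protein of the Z-disc, stood at 32.2 and 32.1 CPM in pair A, 15.6 and 23.4 CPM in pair B and 42.02 and 40.1 CPM in pair C, with C above A above B. Ankrd2, a stretch-responsive titin partner, ran the other way, at 152 and 118 CPM in pair A, 136 and 158 CPM in pair B and 56.6 and 88.6 CPM in pair C, so these muscle stretch genes were not high in the same libraries.

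Collagens marked pair B. All 22 in the list were kept, 12 were above in pair B, and 21 were higher there than the mean of the other pairs, at a median log2 difference of 0.67. The medians for pairs A and C were -0.43 and -0.29. Col3a1, the fibrillar chain of loose connective tissue, stood at 2233 and 2305.5 CPM in pair A, 4802 and 4403 CPM in pair B and 3612 and 2859 CPM in pair C. Every pair was apart, with B above C above A. Col1a1, the main chain of type I collagen, was read at 587 and 598 CPM in pair A, 1091 and 927 CPM in pair B and 681 and 489 CPM in pair C. Pair B was highest, and pairs A and C overlapped. Col12a1, a fibril-associated collagen, was higher in pair B, at 1390.4 and 569 CPM in pair A, 2074 and 2383 CPM in pair B and 656 and 1527 CPM in pair C, but the mates of pairs A and C differed more than 2-fold. Col5a3, a minor fibrillar chain, did not share the pattern, at 182 and 204 CPM in pair A, 244 and 176 CPM in pair B and 84.3 and 57.02 CPM in pair C. Its lowest libraries were those of pair C, as for Col6a3.

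Fibroblast markers were not flat across the pairs. Of 14 on the list 12 were kept, 7 were below in pair A and 4 above in pair B. Their summed level was 572 and 559 CPM in pair A, 856 and 759.5 CPM in pair B and 811 and 755 CPM in pair C. Pdgfra, the receptor that defines muscle mesenchymal cells, stood at 22.1 and 19.7 CPM in pair A, 23.00 and 30.1 CPM in pair B and 27.3 and 39.5 CPM in pair C. Dpt, a matrix protein of fibroblasts, stood at 0.629 and 0.584 CPM in pair A, 3.22 and 3.73 CPM in pair B and 1.37 and 0.689 CPM in pair C. Tcf21 had 0 reads. Myoblasts express many of these genes as well, and the part of fibroblast-like cells in the collagen values was not tested.

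Matrix organisers were spread over the pairs, and 1 of them had the widest gap above the rest for pair B among protein-coding genes of at least 5 CPM. Fmod (chr1:134037254-134048277, plus strand), fibromodulin, which binds collagen fibrils, stood at 27.7 and 18.3 CPM in pair A, 168 and 179.6 CPM in pair B and 42.8 and 47.02 CPM in pair C. Both libraries of pair B were several-fold above every other, a log2 difference of 2.43 ± 0.14, and pair A was lowest. Decorin (Dcn), a related proteoglycan, was instead highest in pair C, at 15.6 and 21.6 CPM in pair A, 31.7 and 24.7 CPM in pair B and 73.5 and 37.1 CPM in pair C. Loxl4, a collagen cross-linking oxidase, was level in 4 libraries and higher in pair B, at 13.2 and 13.6 CPM in pair A, 32.03 and 27.3 CPM in pair B and 14.8 and 13.8 CPM in pair C. P3h2, which hydroxylates collagen prolines, was lowest in pair A, at 2.06 and 2.05 CPM in pair A, 9.68 and 6.598 CPM in pair B and 6.103 and 4.83 CPM in pair C. Over the list of matrix glycoproteins and cross-linkers, 30 of 32 were kept, 7 were above in pair B and 10 below in pair A. The pair B median was 0.29, but without corticosterone replicate 2 it was 0.03. Fibronectin (Fn1), which cells assemble into fibrils, differed between the mates of pair B, at 6366 and 8067 CPM in pair A, 11383 and 5169.9 CPM in pair B and 6992 and 5973 CPM in pair C. Corticosterone replicate 2 was the highest library and its mate the lowest.

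Matrix proteases and their inhibitors tended to be lower in pair A. Of 24 listed, 20 were kept, 9 were below in pair A and 5 above in pair B. Mmp2, the gelatinase that cuts basement membrane, stood at 543 and 485 CPM in pair A, 1258 and 1269 CPM in pair B and 1059.7 and 1263 CPM in pair C. Pair A was lowest, with a log2 difference of -1.24 ± 0.10, and the other pairs overlapped. Serpine2, a thrombin inhibitor bound to matrix, was read at 36.04 and 21.3 CPM in pair A, 100.4 and 103 CPM in pair B and 62.4 and 57.5 CPM in pair C, with B above C above A. Adamts1, a protease of the proteoglycan versican, stood at 136 and 86.5 CPM in pair A, 221 and 238 CPM in pair B and 93.5 and 146 CPM in pair C, highest in pair B.

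**Figure D4:**
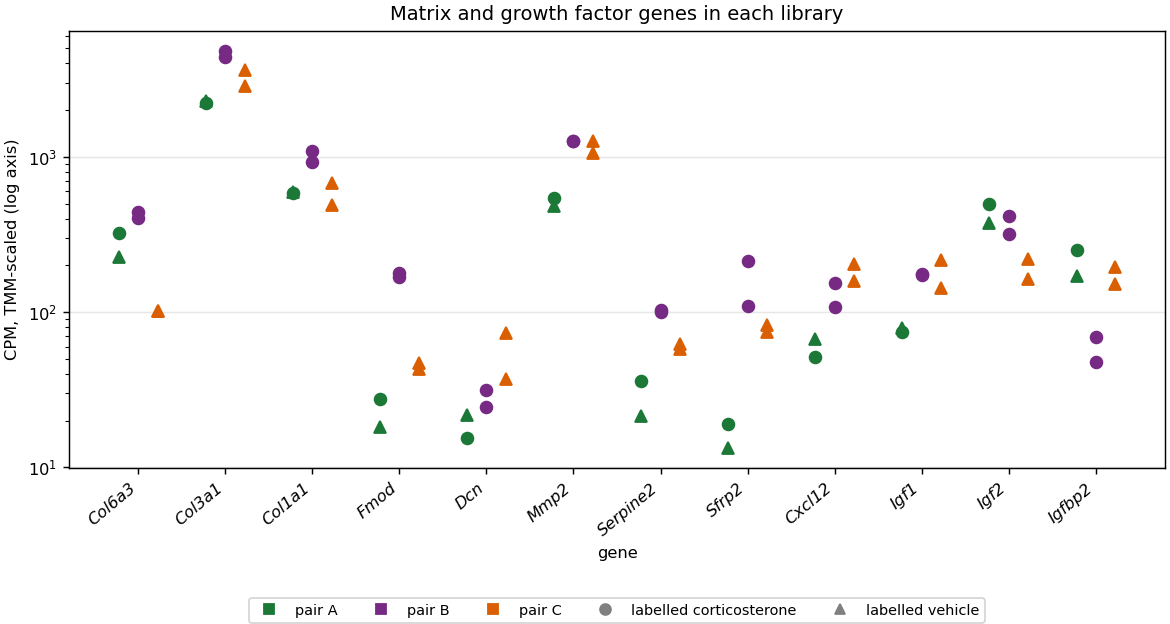
Matrix and growth factor genes in each library. Points are TMM-scaled CPM of single libraries on a log axis, coloured by pair and shaped by treatment label. Fmod, Col3a1 and Serpine2 are highest in both libraries of pair B, Igf1, Mmp2 and Cxcl12 are lowest in both of pair A, and Igfbp2 is lowest in pair B.

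Secreted signals followed the matrix in part. Sfrp2, a secreted modulator of Wnt signalling, stood at 19.03 and 13.3 CPM in pair A, 109.8 and 214 CPM in pair B and 83.1 and 74.6 CPM in pair C. Both libraries of pair A were several-fold below the other 4, with a log2 difference of -2.80 ± 0.31. The complement proteases C1ra and C1s1, which start the classical cascade, were likewise low in pair A. C1s1 was read at 6.32 and 5.43 CPM in pair A, 28.9 and 27.4 CPM in pair B and 31.8 and 25.1 CPM in pair C. C1ra was read at 12.2 and 10.7 CPM in pair A, 35.5 and 33.9 CPM in pair B and 36.97 and 35.7 CPM in pair C. Pairs B and C overlapped for C1s1, and for C1ra pair C was barely above pair B. Both have a close copy in the mouse genome, so their counts are uncertain. Cxcl12, a chemokine that attracts muscle progenitors, stood at 51.4 and 66.9 CPM in pair A, 155 and 108 CPM in pair B and 203 and 158 CPM in pair C. Pair A was lowest, and pair C was barely above pair B. Of 18 cytokines and chemokines, 16 were kept and 7 were below in pair A, at a median of -0.36. Ccl11, the eotaxin chemokine, went against them, at 9.36 and 9.27 CPM in pair A, 1.75 and 1.77 CPM in pair B and 6.46 and 5.83 CPM in pair C, and was low in pair B. Stc1, the glycoprotein hormone stanniocalcin, was highest in pair B, at 3.21 and 2.71 CPM in pair A, 36.4 and 29.6 CPM in pair B and 8.69 and 3.69 CPM in pair C. Inhbb, the beta subunit of activin B, was highest in pair C, at 109 and 91.9 CPM in pair A, 99.2 and 79.7 CPM in pair B and 184 and 258 CPM in pair C.

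The insulin-like growth factor genes did not move together. Igf2, the growth factor that myoblasts release as they differentiate, stood at 495 and 376 CPM in pair A, 317 and 418 CPM in pair B and 163 and 221 CPM in pair C, lowest in pair C. Pairs A and B overlapped. Igfbp2, which binds both growth factors, was read at 252 and 170.3 CPM in pair A, 47.7 and 69.1 CPM in pair B and 152 and 195 CPM in pair C. Pair B was lowest and pairs A and C overlapped. Igfbp7, a related secreted protein, was lowest in pair A, at 292 and 265 CPM in pair A, 392 and 381 CPM in pair B and 413 and 411 CPM in pair C. The receptor gene Igf1r was nearly level, at 31.98 and 27.1 CPM in pair A, 30.6 and 24.1 CPM in pair B and 28.2 and 32.9 CPM in pair C, and all pairs overlapped. Igf2r, which clears Igf2, was lowest in pair C, at 276 and 247 CPM in pair A, 309 and 237 CPM in pair B and 177 and 195 CPM in pair C. Over the list, 19 of 20 were kept and the medians were 0.08, -0.03 and 0.17 for A, B and C.

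Transforming growth factor beta and mechanical target genes were mixed. Ctgf, which cells induce on stretch, stood at 481 and 131 CPM in pair A, 177 and 591 CPM in pair B and 167 and 577 CPM in pair C. The mates of each pair differed several-fold, and the high libraries were the same 3 as for Fkbp5. Acta2, the smooth muscle actin of immature muscle and myofibroblasts, was highest in pair B, at 2546 and 2077 CPM in pair A, 3014 and 3328 CPM in pair B and 2063 and 2499.8 CPM in pair C. Over the 25 genes listed, all kept, 5 were above in pair B and 4 below in pair A. Those shares were not far above the 13.1% and 11.8% of all genes.

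Among Notch and reserve cell genes, 17 of 18 were kept. Of those, 5 were above in pair A, where the share over all genes was 10.3%. In pair C 4 were below, a share near the 18.2% of all genes. The medians were 0.04 for pair A and -0.21 for pair C. Notch1, a receptor that holds back differentiation, stood at 70.5 and 69.7 CPM in pair A, 69.5 and 58.3 CPM in pair B and 41.7 and 38.4 CPM in pair C. Pair C was lowest, and pair A was barely above pair B. Heyl, one of its target repressors, was read at 93.2 and 105 CPM in pair A, 84.6 and 77.5 CPM in pair B and 53.2 and 37.9 CPM in pair C, with no overlap between pairs. Jag1, a Notch ligand, was highest in pair B, at 15.7 and 17.8 CPM in pair A, 27.9 and 28.1 CPM in pair B and 19.2 and 16.00 CPM in pair C. Pax7, the factor of satellite and reserve cells, was highest in pair A and nearly level otherwise, at 65.96 and 63.5 CPM in pair A, 57.7 and 50.6 CPM in pair B and 51.2 and 49.2 CPM in pair C.

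Transcripts of the mitochondrial genome were lowest in pair C. Of 13 genes listed, 12 were kept, and 12 of the 12 were below in pair C, at a median log2 difference of -0.60. In pair A 11 of the 12 were above, at a median of 0.40. Their share of all counts was 2.53% and 2.76% in pair A, 2.46% and 2.39% in pair B, and 1.69% and 1.67% in pair C. The mt-Nd1 gene, a subunit of complex I, stood at 2761 and 2927 CPM in pair A, 2746 and 2749.8 CPM in pair B and 1624 and 1542 CPM in pair C. The mt-Co1 gene, the catalytic subunit of cytochrome oxidase, stood at 10602 and 11491 CPM in pair A, 10465 and 9974 CPM in pair B and 7192 and 7264 CPM in pair C. In both, the pairs A and B were close and pair C was lower, with log2 differences of -0.82 ± 0.07 and -0.56 ± 0.08. These genes come from 1 shared precursor on each strand and are not separate observations.

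The nuclear partners of those genes lay on both sides. All 39 nuclear respiratory chain genes were kept, 12 were below and 5 above in pair C, and the pair C median was -0.06. Cox6a2, the muscle form of a cytochrome oxidase subunit, was low in pair C, at 73.1 and 77.6 CPM in pair A, 75.2 and 74.1 CPM in pair B and 46.3 and 50.8 CPM in pair C. Uqcrc2, a core protein of complex III, was highest there, at 109 and 107 CPM in pair A, 86.1 and 103 CPM in pair B and 137 and 135 CPM in pair C. Ndufa4, another respiratory chain subunit, was also highest there, at 136 and 153 CPM in pair A, 126 and 163 CPM in pair B and 188 and 200.1 CPM in pair C. The lower mitochondrial transcripts of pair C stood beside nuclear transcripts in both directions.

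Glycolysis and glycogen genes leaned towards pair A. Of 35, 33 were kept, 11 were above in pair A and 12 below in pair C, with small medians of 0.12 and -0.07. Pygm, the phosphorylase that mobilises muscle glycogen, stood at 296 and 248 CPM in pair A, 164 and 186 CPM in pair B and 143 and 149 CPM in pair C. Each pair was apart, with A above B above C. Eno3, the muscle enolase, was read at 1440.2 and 1381 CPM in pair A, 1029 and 1181 CPM in pair B and 951 and 1020.0 CPM in pair C. Pair A was highest, and pair B was barely above pair C. Pfkm, the muscle phosphofructokinase, stood at 769.9 and 731 CPM in pair A, 516 and 561 CPM in pair B and 539.8 and 596.5 CPM in pair C, highest in pair A with B and C overlapping. Pdk1, which shuts pyruvate out of the mitochondrion, was highest in pair C, at 38.3 and 36.7 CPM in pair A, 33.7 and 42.3 CPM in pair B and 58.4 and 49.4 CPM in pair C. Ampd1, the muscle AMP deaminase, was scarce and highest in pair A, at 14.04 and 12.7 CPM in pair A, 5.48 and 7.27 CPM in pair B and 8.06 and 6.96 CPM in pair C.

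Lipid genes differed gene by gene. Fabp3, the muscle fatty acid carrier, was low in pair B, at 37.6 and 30.1 CPM in pair A, 14.8 and 17.2 CPM in pair B and 30.4 and 33.5 CPM in pair C. The somewhat more abundant Zcchc17 shares bases with Fabp3. Cd36, a fatty acid transporter, was lowest in pair C, at 69.5 and 59.02 CPM in pair A, 62.1 and 79.2 CPM in pair B and 42.1 and 48.2 CPM in pair C. Of 29 fatty acid handling genes, 27 were kept and the pair medians lay between -0.02 and 0.03. Of 30 sterol and fatty acid synthesis genes, all kept, 10 were above in pair B and 3 below in pair C. The shares over all genes were 13.1% and 18.2%, so the pair C count was under its share. Fgf21, a hormone that muscle releases under metabolic or mitochondrial stress, was lowest in pair C, at 41.1 and 61.02 CPM in pair A, 46.7 and 39.04 CPM in pair B and 15.4 and 8.76 CPM in pair C, a log2 difference of -1.96 ± 0.26. The named genes of amino acid synthesis under ATF4, the stress factor, were highest in pair A but differed in their lowest pair. Phgdh of the serine pathway stood at 96.9 and 95.1 CPM in pair A, 65.7 and 67.00 CPM in pair B and 72.1 and 57.6 CPM in pair C, with B and C overlapping. Psat1 of the same pathway was lowest in pair C, at 191 and 204 CPM in pair A, 185 and 165 CPM in pair B and 142 and 109 CPM in pair C. Asns was read at 55.8 and 67.2 CPM in pair A, 44.2 and 29.6 CPM in pair B and 50.9 and 36.0 CPM in pair C, where B and C overlapped.

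**Figure D5:**
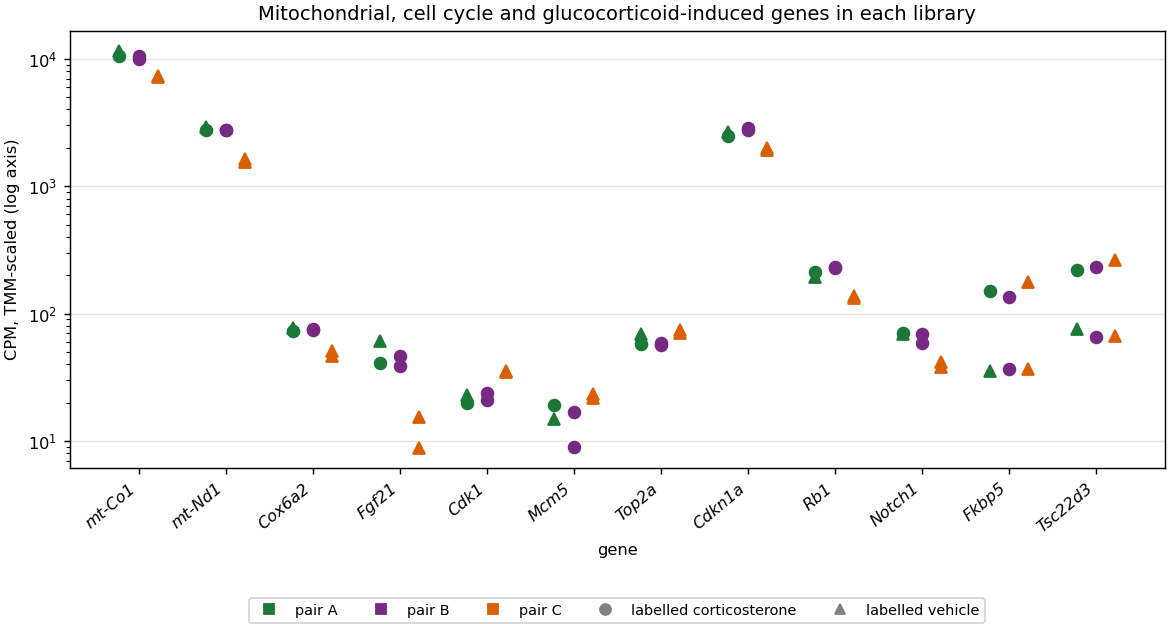
Mitochondrial, cell cycle and glucocorticoid-induced genes in each library. Points are TMM-scaled CPM of single libraries on a log axis, coloured by pair and shaped by treatment label. The mitochondrial genes, Fgf21, Rb1 and Notch1 are lowest in both libraries of pair C and Cdk1 is highest there, while Fkbp5 and Tsc22d3 split each pair.

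Proliferation genes were higher in pair C. All 37 listed were kept, 36 were higher in pair C than the mean of the other pairs, 20 were above there, and the median was 0.28. The medians for pairs A and B were -0.11 and -0.17. Cdk1, the kinase that drives mitosis, stood at 19.9 and 23.1 CPM in pair A, 21.01 and 23.6 CPM in pair B and 34.5 and 35.2 CPM in pair C. The libraries of pair C lay within 1 CPM of each other and exceeded the other 4, with a log2 difference of 0.67 ± 0.09. E2f1, a driver of S phase, was read at 22.3 and 23.4 CPM in pair A, 22.4 and 24.3 CPM in pair B and 29.9 and 29.7 CPM in pair C. Mcm5, a subunit of the replicative helicase, was highest in pair C, at 19.2 and 14.9 CPM in pair A, 8.97 and 16.8 CPM in pair B and 23.4 and 21.7 CPM in pair C. Top2a, the topoisomerase of dividing cells, was less separate, at 57.7 and 68.8 CPM in pair A, 58.2 and 56.7 CPM in pair B and 74.8 and 70.9 CPM in pair C. Mki67, the common proliferation marker, did not separate the pairs, at 37.2 and 51.8 CPM in pair A, 46.03 and 34.1 CPM in pair B and 48.1 and 43.9 CPM in pair C, since vehicle replicate 3 of pair A was the highest. Rpa3, a single-strand DNA binding subunit outside the list, was also higher in pair C, at 6.91 and 7.304 CPM in pair A, 5.54 and 7.501 CPM in pair B and 15.4 and 13.3 CPM in pair C.

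Genes of cell cycle exit ran the other way for some members. Cdkn1a, the p21 inhibitor that myotubes keep high, stood at 2469 and 2664 CPM in pair A, 2843 and 2744 CPM in pair B and 1936 and 2004 CPM in pair C. Pair C was lowest, A was next and B highest, with no overlap. Rb1, the retinoblastoma protein that holds the exit, was read at 213 and 193 CPM in pair A, 234 and 228 CPM in pair B and 133 and 139 CPM in pair C, in the same order, although Lpar6 and Rcbtb2 share bases with it. Gadd45g, a growth arrest gene, was highest in pair B, at 78.04 and 75.05 CPM in pair A, 104 and 113 CPM in pair B and 66.2 and 72.9 CPM in pair C. Cdkn1c, the p57 inhibitor, was highest in pair A, at 13.7 and 11.4 CPM in pair A, 10.03 and 10.3 CPM in pair B and 9.35 and 6.89 CPM in pair C. Of 16 listed, 14 were kept, with 5 below and 3 above in pair C.

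The remaining lists are given by their medians. Ribosomal protein genes, 30 of 30 kept, had medians of -0.08, 0.08 and -0.03 for A, B and C. Unfolded protein and ATF4 genes, 24 of 24 kept, had 0.02, 0.01 and -0.02. Hypoxia targets, 15 of 15 kept, had a median of 0.12 in pair C, where 5 were above and 3 below. Interferon and antigen genes, 18 of 23 kept, had -0.21 in pair A and 0.16 in pair C. Bone and cartilage markers, 5 of 11 kept, had a median of -0.13 in pair C. The bone factor Sp7 was near the floor, at 0.314 and 0.543 CPM in pair A, 0.342 and 0.393 CPM in pair B and 0.0782 and 0.276 CPM in pair C. The other kept markers were not. Spp1 stood at 1838 and 2826 CPM in pair A, 2749 and 1896 CPM in pair B and 2995 and 2138 CPM in pair C. Sox9 was lowest in pair B, at 60.4 and 65.9 CPM in pair A, 36.3 and 32.0 CPM in pair B and 57.4 and 41.8 CPM in pair C. Over the 6 libraries, Runx2 was at 45.5 to 58.0 CPM and Dmp1 at 11.7 to 29.9 CPM. The glucocorticoid-induced list, 18 of 20 kept, had -0.11, -0.09 and 0.17 over the pairs, and the mates of each pair stood apart, as for Fkbp5.

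Other genes led their pairs outside these lists. Below the rest in pair A was Slc6a2, the noradrenaline transporter, at 3.91 and 1.96 CPM in pair A, 18.3 and 27.1 CPM in pair B and 13.8 and 18.03 CPM in pair C. Fbln7, a fibulin of the matrix, was also lowest there, at 13.6 and 10.3 CPM in pair A, 38.7 and 54.98 CPM in pair B and 47.4 and 71.8 CPM in pair C. Above the rest in pair A was Atp1b2, a sodium pump subunit, at 19.6 and 6.97 CPM in pair A, 1.300 and 3.495 CPM in pair B and 3.09 and 3.45 CPM in pair C, and its mates differed widely. Galnt6, an enzyme of protein glycosylation, was also highest there, at 73.1 and 74.6 CPM in pair A, 39.7 and 45.4 CPM in pair B and 36.9 and 28.4 CPM in pair C. In pair B, Ces2c, a carboxylesterase with close paralogues, was higher, at 12.8 and 11.1 CPM in pair A, 33.4 and 29.1 CPM in pair B and 7.75 and 7.51 CPM in pair C. Macc1 was likewise highest there, at 13.3 and 10.4 CPM in pair A, 31.8 and 30.1 CPM in pair B and 6.02 and 8.204 CPM in pair C. Pair B was lower in Lgr6, a receptor for R-spondins, at 8.73 and 14.4 CPM in pair A, 1.95 and 1.45 CPM in pair B and 14.7 and 8.27 CPM in pair C. Gap43, a growth cone protein, was lower there too, at 9.32 and 9.02 CPM in pair A, 1.37 and 2.003 CPM in pair B and 8.41 and 5.69 CPM in pair C. Hdac9, a repressor of Mef2 factors in muscle, was also low in pair B, at 8.94 and 8.51 CPM in pair A, 2.77 and 1.89 CPM in pair B and 9.94 and 8.204 CPM in pair C. In pair C, Eps8, an actin-capping signalling adaptor, was higher, at 43.6 and 41.9 CPM in pair A, 44.9 and 36.1 CPM in pair B and 82.4 and 75.5 CPM in pair C. Nt5e, the surface enzyme CD73 that makes adenosine, was also highest there, at 10.6 and 6.43 CPM in pair A, 8.86 and 13.9 CPM in pair B and 22.6 and 25.1 CPM in pair C. Adgrf3, an adhesion receptor, was lower in pair C, at 6.88 and 8.31 CPM in pair A, 11.1 and 7.78 CPM in pair B and 1.92 and 1.896 CPM in pair C. Kifc2, a kinesin, was lower there too, at 6.42 and 7.35 CPM in pair A, 6.36 and 6.95 CPM in pair B and 2.895 and 2.93 CPM in pair C, but the far more abundant Cyhr1 overlaps it.

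Position and length set the pairs apart little. Over 20 chromosomes with at least 100 kept genes, the median log2 difference lay between -0.04 and 0.032 for pair A, between -0.0275 and 0.0471 for pair B and between -0.0362 and 0.0455 for pair C. The share of genes that passed the 3-pair threshold was 6.44% to 11.5% per chromosome. Across 14792 genes, which are not independent replicates, Spearman's rho of the pair difference with exon length was 0.074 for pair A, -0.056 for pair B and -0.015 for pair C. Sequencing depth differed between the mates of each pair. Total counts were 29007179 and 23877583 in pair A, 29928653 and 25826081 in pair B and 24901830 and 28496898 in pair C.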

How the data were processed

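Poly(A) RNA of 6 C2C12 cultures was sequenced after a NEBNext Ultra preparation, per the labels' protocols. The deposited values are raw counts of reads for 46983 genes, in 1 table made by the authors. HISAT2 2.0.5, HTSeq 0.6.1, DESeq2 1.24.0 and build mm10 are named in the submitters' processing notes. No source used here gives the annotation release or strand setting, so overlapping genes cannot be told apart. Of the identifiers, 46488 (98.95%) matched GENCODE M21, the source of gene coordinates, overlaps and exon lengths.

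From the deposited counts, CPM were computed here with TMM factors. Genes were kept by filterByExpr with the pairs as groups (14839) or the labels (14450). Pair differences are log2 differences from the mean of the other pairs, with the SE of edgeR's quasi-likelihood fit (edgeR 4.0.16, R 4.3.3), two-sided, with Benjamini-Hochberg adjustment over all genes kept. Each SE was the log2 difference, without sign, divided by the square root of the F statistic of the fit. Biological variation within pairs was 11.5%. Because mates were chosen as nearest libraries, that value and the SE tend to be too small. The procedure was tested on simulated data with the pairs fixed beforehand, so that test does not cover the choice of pairs by distance. The alternatives were DESeq2 1.42.0, limma-voom (limma 3.58.1), other scalings and filters, the label as a term and each library left out.

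The pairs, the 27 gene lists and the rules for naming genes were chosen with earlier results of these data known. Named were Myog, Col6a3 and Igf1, marked list members, up to 3 further members per list by the gap between a pair and the other libraries, and per pair and direction the 8 protein-coding genes of at least 5 CPM with the widest gap. The sources do not say whether cultures of a pair shared a plate or a preparation day. Some genes are not reported here.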

Additional observations from a re-analysis of the deposited data

How the results depend on the processing

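The nearest library was the pair mate for 6 of 6 libraries under all 6 other choices of genes, scaling and distance. DESeq2 passed 2419 genes across the 3 pairs, 924 for pair A and 1333 for pair B, against 1298, 352 and 806 with edgeR. With every gene of at least 1 count the counts were 3975 across the pairs, 1769 for A, 2315 for B and 3043 for C. With the treatment label as a term they were 24, 162, 2 and 0. Pairs B and C each carry 1 label, whereas pair A holds both. Why the count of pair A fell was not tested. Leaving out each library in turn gave 217 to 788 across the pairs, 5 to 181 for A, 24 to 263 for B and 12 to 1205 for C, with the lone library assumed to vary like the others. Each left-out library moved each count by over 1.5 times, except corticosterone replicate 3 and pair C (1205, within that range). limma-voom, the 3 scalings, the stricter filter and protein-coding genes alone left the 4 counts within 1.5 times. The label comparison called 0 genes with edgeR, 138 with DESeq2, 0 with limma-voom and 0 to 29 with a library left out (29 without corticosterone replicate 1 and 11 without vehicle replicate 3). With the replicate number as a block it called 0. Deviations from the label mean correlated at -0.132, -0.269 and -0.313 between same-numbered libraries of the 2 labels. Between differently numbered ones the values ran from -0.0651 to 0.375. Deviations from a mean of 3 libraries are tied to one another, so these values cannot tell whether the numbers pair the cultures.

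Median list differences with a library left out were 0.647 to 0.783 for collagens in pair B, 0.0313 to 0.379 for matrix glycoproteins in pair B and 0.387 to 0.604 for adult fast sarcomere genes in pair A. For sterol and fatty acid synthesis in pair C the range was -0.309 to 0.00674. Of 1926 values of named genes under 9 alternatives, 1771 moved by less than the SE of the fit and 155 by that much or more. 19 genes changed sign under some alternative, among them Fn1, Mki67, Igf1r, Ctgf and Fkbp5. Other scalings moved the median of all genes by under 0.05 on the log2 scale. Depth limits genes near 3 counts, and with 2 libraries a pair the spread between mates is itself poorly known.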
